A study of Mus musculus with 7 samples.

Results

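Interferon-stimulated genes in mouse thymic epithelium were followed through 9 members, Isg15, Ifit1, Ifit3, Irf7, Ubd, Bst2, Oasl2, Cxcl10 and Ifi27l2a. They were chosen by name, with earlier results of these data known. They are 9 of the 20839 genes listed in at least 1 of 7 single-cell libraries, and each was listed in all 7 libraries. The study profiled EpCAM-positive, CD45-negative cells sorted from thymi, to follow medullary cells in the steady state and after a block of RANK ligand (RANKL), which Aire-expressing cells need. Each library was a pool of 3 thymi, and there was 1 library per treatment and time.

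The libraries fell into 3 groups. The Aire trace library came from 6-week-old C57BL/6 mice carrying Aire-CreERT2-R26-CAG-Stopfl-zsGreen, in which tamoxifen (2 mg, every other day over 10 days) turns on zsGreen in cells that express Aire. The 2 isotype libraries came from C57BL/6 mice given 100 µg of an isotype control antibody 3 times in 1 week, and were taken at week 2 (age 4 weeks) and week 10 (age 12 weeks). The 4 anti-RANKL libraries came from C57BL/6 mice given 100 µg of anti-RANKL on the same schedule, and were taken at weeks 2, 4, 6 and 10, at ages of 4, 6, 8 and 12 weeks. Age and time after treatment cannot be told apart in them.

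Interferons are secreted proteins that signal through paired receptor chains and their kinases to transcription factors in the nucleus. Type I and type III interferons act at interferon-stimulated response elements, and type II interferon acts at gamma-activated sites. The medulla of the thymus is known to make interferons and to express their target genes without infection. The members cover several of these outputs. Isg15 encodes a ubiquitin-like modifier, Ifit1 and Ifit3 encode antiviral RNA-binding proteins of 1 family, Irf7 a transcription factor that amplifies type I interferon, Bst2 the membrane protein tetherin, and Oasl2 a relative of the oligoadenylate synthetases. Ubd encodes the ubiquitin-like protein FAT10, Cxcl10 a chemokine induced by interferon-gamma, and Ifi27l2a a small membrane protein.

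The libraries held 8453 cells. Median depth per cell was 9213 UMIs in the Aire trace library, 16809 and 8333 in the isotype libraries of weeks 2 and 10, and 11145.5, 4779, 4299.5 and 7332 in the anti-RANKL libraries of weeks 2, 4, 6 and 10. Total depth per library ran from 3857876 to 22197691 UMIs. Libraries shared 50 cell barcodes, at most 7 between any pair. No doublet caller was run, and cells that passed more than 1 gate (305 cells) were kept out of every gate.

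Cells with no UMI of Ptprc, the gene of CD45, numbered 8220. They were sorted by 4 gates on the deposited natural log values, Aire > 1.5, Ccl21a > 4, Trpm5 > 0 and Krt10 > 1.5, which mark Aire-expressing cells, cells that make the chemokine CCL21, tuft-like cells and keratinised cells. The Aire gate held 1652 cells, the Ccl21a gate 3230, the Trpm5 gate 348 and the Krt10 gate 141, and 2544 cells passed none. Among the 4 gates, the summed markers of each gate were highest in that gate in all 7 libraries. The Krt10 gate was uneven: its 6 markers, led by Krtdap, summed to 136 and 154 UMIs per 10000 in the isotype week 2 and anti-RANKL week 10 libraries but to 15.6 in the anti-RANKL week 4 library, where fibroblast markers, led by Dcn, summed to 16.3. These were the only 3 libraries with at least 20 cells in the Krt10 gate.

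Ligands came first in the order of the pathway and were rare. Of 21 interferon genes searched, 7 were listed in any library, and none reached the filter of a mean of 0.05 UMIs per 10000. A gene not listed in a library counted there as 0 UMIs, so the counts below cover only the libraries that list it. Ifnb1, the type I interferon beta, had 104 UMIs in 22 cells, 14 of them in the Aire gate and 2 in the Ccl21a gate. Ifnl2, a type III interferon, had a UMI in 57 cells, 24 of them in the Aire gate and 1 in the Ccl21a gate. Cells of no gate held 26 more. Ifnl3, its close relative, had a UMI in 38 cells, 18 in the Aire gate, 16 in no gate and 0 in the Ccl21a gate. Ifng, the type II interferon, had a UMI in 27 cells, 17 in no gate, 9 in the Aire gate and 1 in the Ccl21a gate. The other 3 listed ligands were rarer: Ifnz had a UMI in 12 cells (7 in the Ccl21a gate and 1 in the Aire gate), Ifna13 in 4 (all in the Aire gate) and Ifnk in 3 (2 in the Aire gate). Ifnz was listed in 4 of the 7 libraries, and Ifna13 and Ifnk in 1 each. Ifnb1 and Ifnl3 were not listed in the anti-RANKL libraries of weeks 2, 4 and 6, in which Aire gate cells were fewest among the treated libraries (52, 20 and 85 cells), Ifnl2 was not listed at weeks 4 and 6, and Ifng at weeks 2 and 4.

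Receptor chains were found at low levels in every gate. Ifnar2, a chain of the type I receptor, had a mean over 7 libraries of 0.326 ± 0.0619 (SD) UMIs per 10000 in the Aire gate and 0.631 ± 0.0446 in the Ccl21a gate, and was lower in the Aire gate (log2 difference -0.79, adjusted p = 0.000741). Ifnar1, the other chain, had means of 0.184 and 0.220 in these gates and did not pass the test (log2 difference -0.18, adjusted p = 0.437). Ifngr1, the ligand-binding chain of the type II receptor, was lower in the Aire gate (log2 difference -1.62, adjusted p = 1.061e-07), whereas its partner chain Ifngr2 was higher there (log2 difference 0.87, adjusted p = 0.000258). Ifnlr1, the chain particular to the type III receptor, had means of 0.00236 in the Aire gate and 0.0520 in the Ccl21a gate. Its partner Il10rb had means of 0.446 and 0.582 (log2 difference -0.32, adjusted p = 0.0517). Downstream of them, Irf9, a regulatory factor (log2 difference -1.53, adjusted p = 7.638e-10), and Socs3, a feedback inhibitor (-2.31, adjusted p = 1.449e-09), were lower in the Aire gate, and Socs1, another such inhibitor, was higher (0.46, adjusted p = 0.0463). Of the kinases, Jak1 had means of 1.34 and 1.18, Jak2 of 0.130 and 0.188 and Tyk2 of 0.0846 and 0.0431 in the Aire and Ccl21a gates, and none passed the test. In the list of receptors and signalling genes 6 of the 14 tested were lower in the Aire gate than in the Ccl21a gate and 2 higher, against 23.3% and 19% of all genes, with a median log2 difference of -0.33 beside -0.09 over all genes tested. Tests across genes used limma on log2 of the mean UMIs per 10000 plus 0.1 in each gate of each library, with libraries as blocks and replicates and with p-values adjusted over 11380 genes by the Benjamini-Hochberg method.

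The members split between the Aire gate and the Ccl21a gate. Isg15, Ifit1, Ifit3, Irf7, Bst2, Oasl2 and Ifi27l2a were lower in the Aire gate, 7 of 9 members, against 23.3% of all genes tested. Ubd was higher, 1 of 9 members, against 19% of all genes. Cxcl10 did not pass the test. The median log2 difference of the members was -1.69, beside -0.09 over all genes.

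Ifi27l2a had levels from 3.18 to 14.8 UMIs per 10000 (median 4.85) over the 7 libraries in the Aire gate and from 37.2 to 71.3 (median 55.7) in the Ccl21a gate. The Ccl21a gate was the higher in 7 of 7 libraries with no overlap, and the highest Aire gate value was that of anti-RANKL week 6 (log2 difference -3.29, 95% interval -3.74 to -2.84, adjusted p = 7.203e-12). Isg15 ran from 0.579 to 1.84 (median 0.772) in the Aire gate and from 3.70 to 10.5 (median 7.57) in the Ccl21a gate. These ranges did not overlap either, and the direction held in 7 of 7 libraries (log2 difference -2.69, adjusted p = 6.177e-10). Irf7 had levels of 0.181 to 0.476 (median 0.392) in the Aire gate and of 1.18 to 3.68 (median 3.03) in the Ccl21a gate. The Irf7 ranges stood apart in the same way (log2 difference -2.35, adjusted p = 1.266e-10, 7 of 7 libraries).

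The antiviral effectors followed. Ifit3 had levels of 0.0646 to 0.542 (median 0.131) in the Aire gate and of 0.536 to 3.19 (median 2.24) in the Ccl21a gate. Its ranges met at their ends, where the anti-RANKL week 6 Aire gate lay beside the anti-RANKL week 4 Ccl21a gate, and the Ccl21a gate was above in 7 of 7 libraries (log2 difference -2.77, adjusted p = 1.273e-05). Ifit1, its family member, ran from 0.653 to 1.47 (median 0.899) and from 0.866 to 3.59 (median 2.13). The Ifit1 ranges overlapped, and 6 of 7 libraries showed the direction (log2 difference -0.92, adjusted p = 0.00215), anti-RANKL week 6 being the exception with 1.47 and 1.46. Bst2 had levels of 1.06 to 2.17 (median 1.28) in the Aire gate and of 2.78 to 7.12 (median 5.08) in the Ccl21a gate. Oasl2 had levels of 1.01 to 1.86 (median 1.18) and of 2.01 to 4.41 (median 3.76). Neither Bst2 (log2 difference -1.69, adjusted p = 7.524e-08) nor Oasl2 (-1.31, adjusted p = 1.993e-07) overlapped between these gates, and each showed the direction in 7 of 7 libraries.

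Ubd went the other way. Its level ran from 32.7 to 61.8 (median 47.5) in the Aire gate and from 3.60 to 17.7 (median 5.84) in the Ccl21a gate, with no overlap (log2 difference 2.78, 95% interval 2.06 to 3.50, adjusted p = 3.306e-07, higher in 7 of 7 libraries). Cxcl10 ran from 7.88 to 13.6 (median 10.5) in the Aire gate and from 5.86 to 13.4 (median 7.99) in the Ccl21a gate. The Cxcl10 ranges overlapped for the most part, and although the Aire gate was above in 7 of 7 libraries the difference did not pass the test (log2 difference 0.28, adjusted p = 0.288). With means of natural log values in place of the log of means, Cxcl10 passed at 0.637 natural log units. Aire gate cells also carried more myeloid and dendritic marker RNA, led by Lyz2: summed levels were 3.79 to 10.9 UMIs per 10000 there and 0.240 to 0.948 in the Ccl21a gate, and its part in the levels of the members was not tested further. In cells with no UMI of the immune markers the same 8 members passed, and the difference of Cxcl10 was -0.02.

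**Figure D1:**
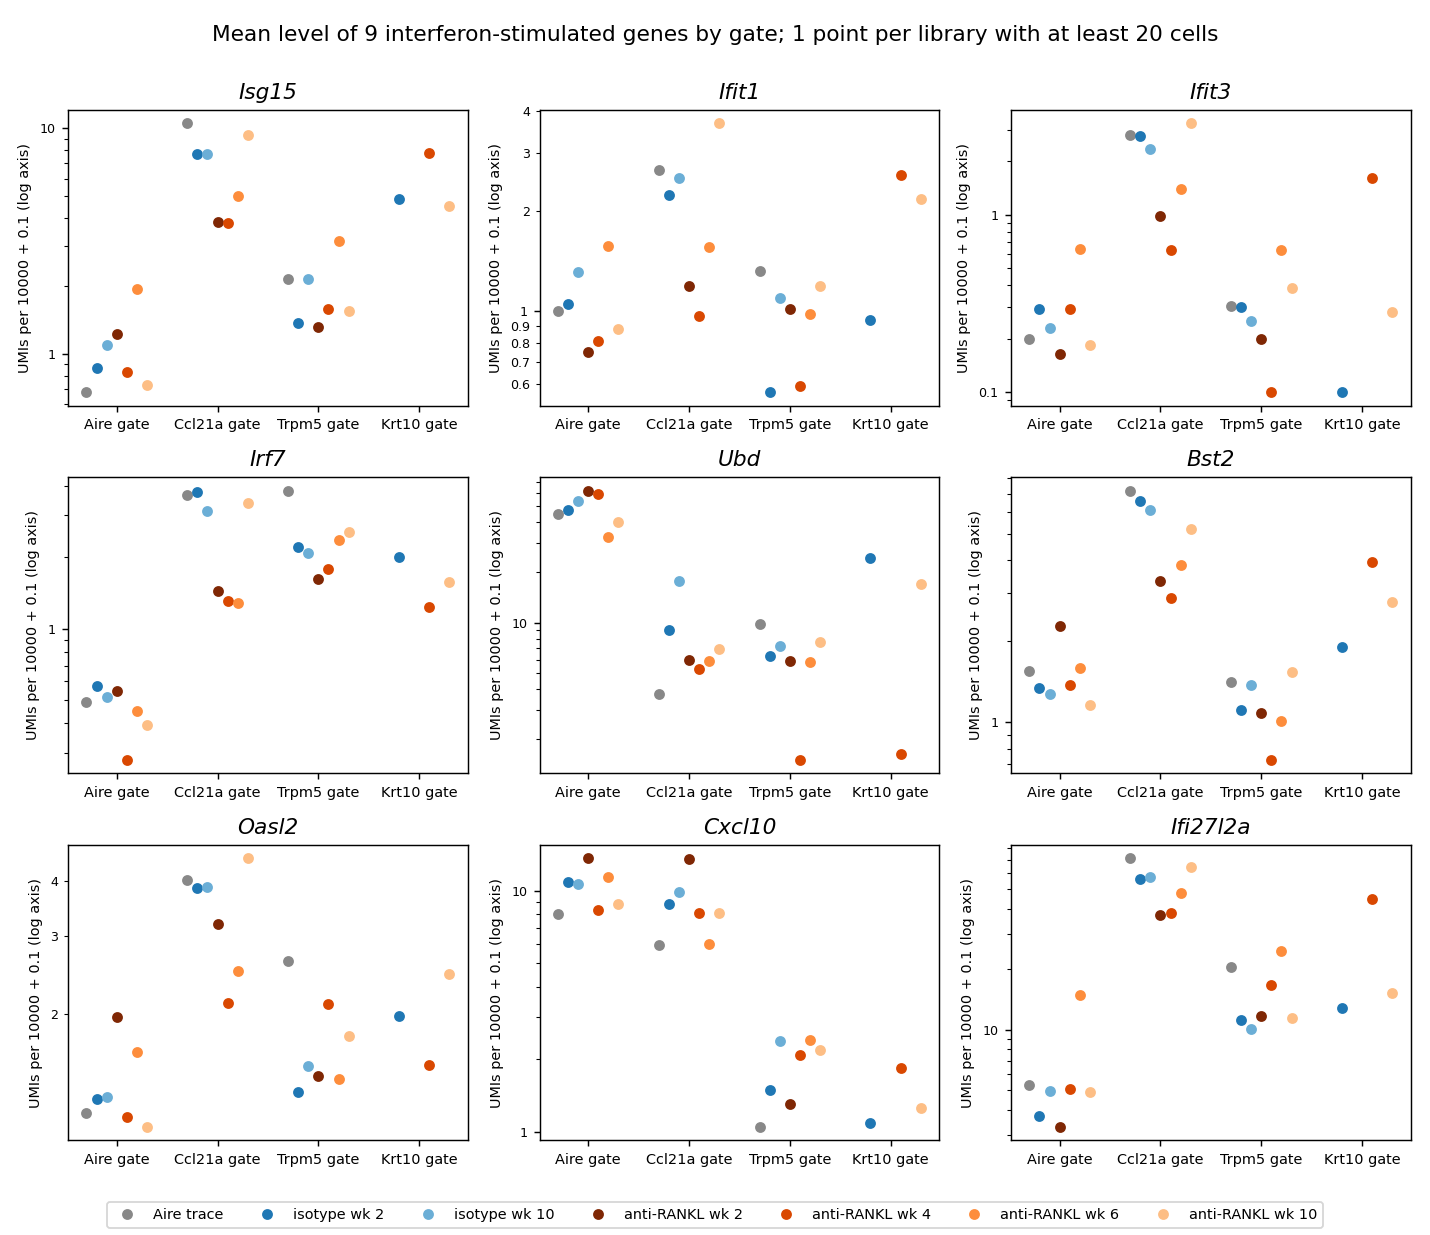
Mean level of each member (UMIs per 10000 plus 0.1, log axis) in the 4 gates, with 1 point for each library with at least 20 cells in that gate and libraries coloured by treatment and week. Ubd sits between 32.7 and 61.8 UMIs per 10000 in the Aire gate, before the 0.1 is added, while Ifi27l2a sits between 37.2 and 71.3 in the Ccl21a gate.

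Trpm5 gate cells were also low for most members. In the comparison with the Ccl21a gate 7 of 9 members were lower, against 18.2% of all genes, and 0 were higher, against 22.8% of all genes. The 7 were Isg15, Ifit1, Ifit3, Bst2, Oasl2, Cxcl10 and Ifi27l2a, each lower in 7 of 7 libraries. The median log2 difference of the members was -1.81, beside 0.05 over all genes. Cxcl10 passed as lower here, whereas it did not pass between the Aire and Ccl21a gates. Its levels were 0.947 to 2.305 (median 1.99) in the Trpm5 gate, below the lowest Ccl21a gate value of 5.86 (log2 difference -2.24, adjusted p = 6.301e-10). Irf7 ran from 1.52 to 3.72 (median 2.11) in the Trpm5 gate, nearly the range of the Ccl21a gate. Its log2 difference was -0.03 (adjusted p = 0.927), with the Trpm5 gate above in 4 of 7 libraries. Ubd ran from 1.41 to 9.75 (median 6.23), and its difference of -0.30 did not pass the test (adjusted p = 0.536). In cells with no UMI of the immune markers, Isg15 (-1.45), Ifit1 (-0.30) and Oasl2 (-0.57) no longer passed and Ubd (-1.08) did. Ubd also passed as lower with Trpm5 > 1 (-1.59) and with the gates Aire > 0 and Krt10 > 2 (-1.03).

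The Krt10 gate could be compared in 3 libraries, isotype week 2, anti-RANKL week 4 and anti-RANKL week 10, in that order below. A single fit held the 4 gates and the cells of no gate in all 7 libraries. Differences and p-values of the Krt10 gate therefore also drew on libraries without a Krt10 gate profile. Against the Ccl21a gate 5 of 9 members were lower, against 13.9% of all genes, and 0 were higher, against 10.5% of all genes. Cxcl10 levels in the Krt10 gate were 0.991, 1.75 and 1.15 UMIs per 10000, and in the Ccl21a gate 8.69, 7.97 and 7.99. All 3 libraries were far apart in the same direction (log2 difference -2.58, adjusted p = 1.541e-07). Ifi27l2a levels were 12.6, 44.8 and 15.1 in the Krt10 gate beside 55.7, 38.1 and 64.6 in the Ccl21a gate. Anti-RANKL week 4 ran against the fitted direction (log2 difference -1.22, adjusted p = 0.00323, 2 of 3 libraries), as it did for Ifit3 (-2.27, adjusted p = 0.00672) and Bst2 (-0.72, adjusted p = 0.0464). Oasl2 was lower in 3 of 3 libraries (-0.72, adjusted p = 0.0160). Isg15 (-0.08, adjusted p = 0.890), Ifit1 (-0.05), Irf7 (-0.53, below in 3 of 3 libraries) and Ubd (0.46) did not pass. Irf7 passed as lower with 10 cells a profile (-0.85), with cells of several gates counted in each (-0.79), with Ccl21a > 5 (-0.89) and with means of natural log values (-0.44). Without the isotype week 2 library Cxcl10 alone passed, 1 member, and without anti-RANKL week 10 Cxcl10 and Oasl2 did, 2 members. At 2000 UMIs per cell 3 members passed. Bst2 was lost when any of 5 libraries was left out, at differences from -0.75 to -0.32. It was also lost when thinned to 2000 UMIs (-0.51) and with a pseudocount of 0.01 (-0.74). The same held with Trpm5 > 1, no filter on low values or no trend (-0.72 each). In the Ccl21a > 5 gate Ubd passed as higher in the Krt10 gate (1.02), as it did without anti-RANKL week 4 (1.34).

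Isg15 had the largest difference among the members that were higher in the Krt10 gate than in the Aire gate. Its Krt10 gate levels of 4.76, 7.69 and 4.41 stood beside Aire gate levels of 0.772, 0.733 and 0.626 in the same libraries. The Krt10 gate was above in each of them (log2 difference 2.61, adjusted p = 4.39e-07). In this comparison 6 of 9 members were higher in the Krt10 gate, against 16.5% of all genes, and 2 were lower, against 17.5% of all genes. The other 5 higher members were Ifi27l2a (2.07), Irf7 (1.82), Bst2 (0.97), Ifit1 (0.87) and Oasl2 (0.59, log2 differences). Ubd (-2.31) and Cxcl10 (-2.86) were the lower members, in 3 of 3 libraries each. Ifit1 was above in 2 of 3 libraries, and did not pass the test when any of 5 libraries was left out, with the lowest difference, 0.41, without anti-RANKL week 4. It did not pass with cells thinned to 2000 UMIs (0.43), without the library block (0.77) or without the filter on low values (0.87) either. Without anti-RANKL week 4 Bst2 (0.63) did not pass. Oasl2 did not pass without any 1 of 4 libraries, with the lowest difference, 0.42, without anti-RANKL week 10, nor with a pseudocount of 1 (0.37), means of natural log values (0.31), no library block (0.53), no filter on low values (0.59) or no trend (0.59).

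Other interferon targets were counted by lists. Of 42 other type I and III targets tested, 28 were lower in the Aire gate than in the Ccl21a gate and 4 higher, with a median log2 difference of -0.92. Of all genes 23.3% were lower and 19% higher. Rtp4 (log2 difference -3.12), Phf11d (-2.50) and Ifitm3, a membrane protein that blocks virus entry (-2.42), were the lowest of them, and Ifi30, a lysosomal thiol reductase (1.72), Epsti1 (1.35) and Isg20, an exonuclease (0.67), were the highest. Type II targets were mixed: of 29 tested, 12 were lower and 10 higher, and their median of -0.05 was near the all-gene median of -0.09. The guanylate-binding proteins Gbp4 (2.78) and Gbp8 (2.11) and the chemokine Cxcl9 (1.44) were higher in the Aire gate, and the GTPases Iigp1 (-2.46), Irgm1 (-1.58) and Gbp3 (-1.50) were lower. In the Trpm5 gate 24 of the 42 type I and III targets and 19 of the 29 type II targets were lower than in the Ccl21a gate, and 4 and 1 were higher, against 18.2% and 22.8% of all genes. In the Krt10 gate the counts against the Ccl21a gate were 21 lower and 1 higher, and 13 lower and 0 higher, against 13.9% and 10.5% of all genes.

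A further list of 10 genes held regulatory factors and the IRF2-binding protein genes Irf2bp1, Irf2bp2 and Irf2bpl. Of the 10 tested, 3 were higher and 4 lower in the Aire gate than in the Ccl21a gate, beside 19% and 23.3% of all genes. Irf5 (log2 difference 2.14), Irf4 (1.60) and Irf8 (1.38), factors known from immune cells, were the higher ones, and Irf2bpl (-2.11), Irf2bp1 (-0.64) and Irf3 (-0.55) led the lower ones. Aire gate cells carried more myeloid and dendritic marker RNA, as given above, and its part in the levels of these factors was not tested. Of 15 nucleic acid sensors and adaptors tested, 9 were lower in the Aire gate, beside 23.3% of all genes, among them the RNA sensors Ddx58 (-1.48), Eif2ak2 (-1.34) and Zbp1 (-1.31), and 3 were higher, beside 19%: Tmem173, which encodes STING (1.17), Aim2 (0.90) and the kinase gene Ikbke (0.67).

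The time course asked how the members stood while the medulla lost and regained Aire-expressing cells. With all cells with Ptprc = 0 pooled, Ubd levels were 32.6 and 38.5 UMIs per 10000 in the isotype libraries of weeks 2 and 10, and 9.91, 5.20, 10.5 and 25.9 in the anti-RANKL libraries of weeks 2, 4, 6 and 10. The Aire gate held 38.4% and 42.6% of cells in the isotype libraries and 4.39%, 1.38%, 11.8% and 36.2% in the anti-RANKL libraries. The 4 treated values were all below both isotype values, as were the shares of the Aire gate. The Aire trace library, which had no anti-RANKL, lay with the treated ones, at 10.5 for Ubd and 8.12% for the Aire gate. Ifi27l2a stood the other way, at 15.9 and 18.2 in the isotype libraries and 29.3, 36.6, 36.6 and 22.9 in the treated ones, and was highest in the Aire trace, at 53.8. Isg15 was also above both isotype values (2.81 and 2.77) in each treated library, at 3.37, 4.09, 4.08 and 3.46. The Ccl21a gate held 13.5% and 15.8% of cells in the isotype libraries and 52.5%, 61.9%, 41.2% and 19.2% in the treated ones, and 63.7% in the Aire trace, so pooled levels and cell composition cannot be told apart. For that reason levels are given within the Ccl21a gate, which had at least 152 cells in each library. No test was made between treatments, since each treatment and time had 1 library.

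Within the Ccl21a gate most members were lower after anti-RANKL at weeks 2, 4 and 6 and within 1.5-fold of at least 1 isotype library at week 10. A member was called where its level plus 0.1 was at least 1.5 times below, or above, both isotype libraries. At week 2, 6 of 9 members were lower, against 1.55% of 10153 genes, and 0 were higher, against 1.29%. At week 4, 7 of 9 were lower, against 2.54% of genes, and 0 higher, against 2.44%. At week 6, 6 of 9 were lower, against 4.3% of genes, and 0 higher, against 3.56%. At week 10, 0 of 9 were lower, against 1.09% of genes, and 0 higher, against 1.55%. The members' median log2 ratios to the isotype mean were -0.99, -1.14, -0.63 and 0.19 at these weeks, beside 0.01, -0.02, -0.06 and 0.01 over all genes. The 4 comparisons share their isotype libraries. The 2544 cells of no gate did not follow for all members. There Isg15 was above both isotype libraries at weeks 2, 4 and 6 (log2 ratios to the isotype mean 0.18, 0.78 and 0.36), as was Ifi27l2a (0.57, 1.14 and 0.98), and Bst2 was at weeks 2 and 4 (0.25 and 0.35), while Ubd (-1.64, -3.17 and -1.68) and Cxcl10 (-0.70, -1.47 and -0.45) were below both at weeks 2, 4 and 6. Irf7 was above both at week 2 (0.29) and between them at weeks 4 and 6. Ifit3 was above both at week 4 (0.42) and between them at weeks 2 and 6. Ifit1 (-0.21 and -0.77) and Oasl2 (-0.33 and -0.40) were below both at weeks 4 and 6.

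Irf7 levels in the Ccl21a gate were 3.68 and 3.03 UMIs per 10000 in the isotype libraries of weeks 2 and 10, 1.34, 1.20, 1.18 and 3.29 in the anti-RANKL libraries of weeks 2, 4, 6 and 10, and 3.56 in the Aire trace library. The values of weeks 2, 4 and 6 were the lowest of the 7, and week 10 lay between the isotype values. Ifit3 levels were 2.67 and 2.24 in the isotype libraries, 0.882, 0.536, 1.29 and 3.19 in the treated ones, and 2.73 in the Aire trace. Again the early treated libraries were lowest, with week 4 at the bottom and week 10 the highest of all 7. Isg15 levels were 7.58 and 7.57 in the isotype libraries, 3.77, 3.70, 4.94 and 9.29 in the treated ones, and 10.5 in the Aire trace. The exact 95% Poisson intervals of Isg15, which cover counting error only as all such intervals here do, were 3.62 to 3.91 at week 2 and 7.21 to 7.97 in the isotype library of the same week.

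Bst2 levels were 6.49 and 6.03 in the isotype libraries, 3.24, 2.78, 3.73 and 5.08 in the treated ones, and 7.12 in the Aire trace. Its week 10 value stayed below both isotype libraries by less than the 1.5-fold used for a call. Ifit1 levels were 2.13 and 2.41 in the isotype libraries, 1.09, 0.866, 1.46 and 3.59 in the treated ones, and 2.56 in the Aire trace. It was called lower at weeks 2 and 4 and not at week 6. Oasl2 levels were 3.76 and 3.78 in the isotype libraries, 3.09, 2.01, 2.40 and 4.41 in the treated ones, and 3.91 in the Aire trace. It was called lower at weeks 4 and 6 and not at week 2.

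Ifi27l2a levels were 55.7 and 57.5 in the isotype libraries, 37.2, 38.1, 47.6 and 64.6 in the treated ones, and 71.3 in the Aire trace. The early treated libraries were again the lowest, but not by enough for a call. Cxcl10 did not share the pattern, with 8.69 and 9.82 in the isotype libraries, 13.4, 7.97, 5.92 and 7.99 in the treated ones, and 5.86 in the Aire trace. Its highest value was that of anti-RANKL week 2, and it was called at no week. Ubd levels were 8.89 and 17.7 in the isotype libraries, 5.84, 5.18, 5.80 and 6.85 in the treated ones, and 3.60 in the Aire trace. Ubd was called lower at weeks 2, 4 and 6, yet its isotype libraries differed from each other by more than 1.5-fold and the Aire trace library, which had no anti-RANKL, was the lowest of all 7.

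**Figure D2:**
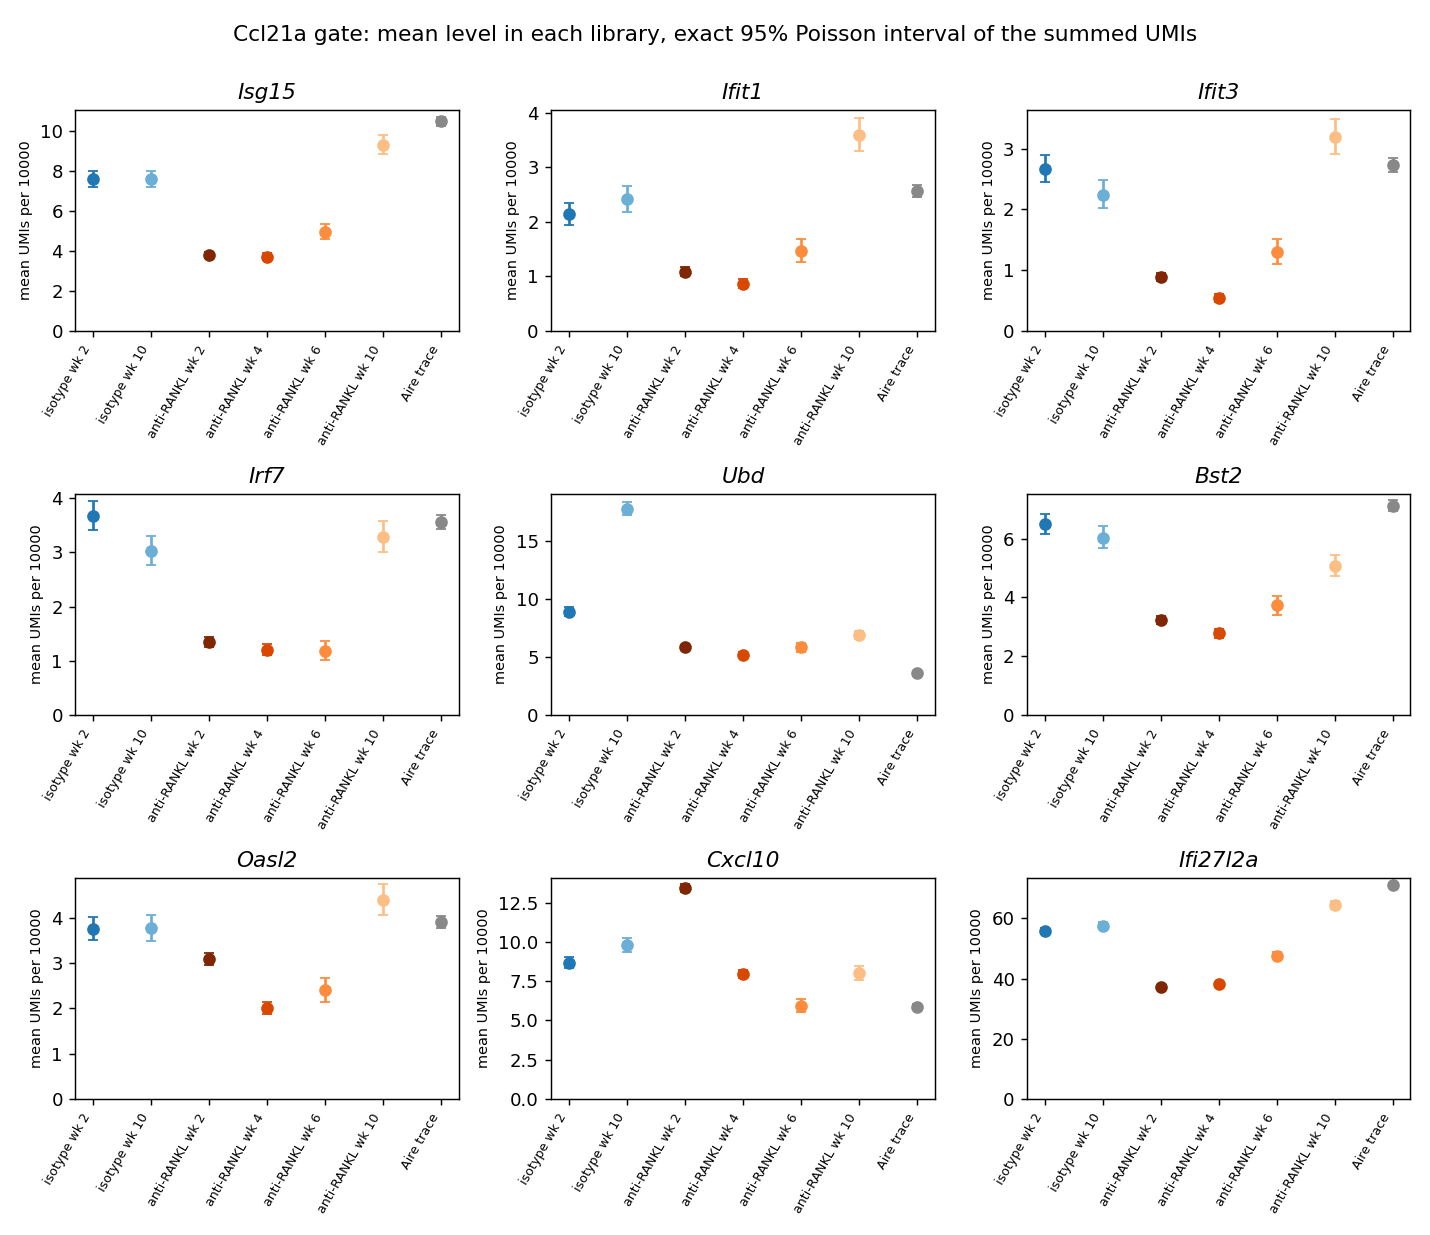
Mean level of each member (UMIs per 10000) in cells of the Ccl21a gate in the isotype, anti-RANKL and Aire trace libraries; points are single libraries and bars the exact 95% Poisson interval of the summed UMIs. Irf7 lies at 1.34, 1.20 and 1.18 at weeks 2, 4 and 6 after anti-RANKL, and between 3.03 and 3.68 in the other libraries.

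Isg15, Ifit3, Irf7, Ubd and Bst2 were called lower at each of weeks 2, 4 and 6, 5 of 9 members against 74 of 10153 genes (0.729%). Among the listed pathway genes, Usp18, Dhx58, Zbp1, Ifi204, Phf11d and Psmb8 were called at the same 3 weeks. Zbp1, a sensor of nucleic acids, had levels of 1.92 and 1.77 in the isotype libraries and of 0.727, 0.571, 0.833 and 1.63 in the treated ones. Usp18, which removes ISG15 and dampens type I receptor signalling, had 2.28 and 2.50 in the isotype libraries and 1.34, 1.02, 1.41 and 2.196 in the treated ones. Psmb8, an immunoproteasome subunit, had 3.71 and 3.75 in the isotype libraries and 1.96, 1.85, 2.24 and 3.48 in the treated ones. All 3 were low at weeks 2, 4 and 6 and within 1.5-fold of the isotype libraries at week 10. Of 43 other type I and III targets tested in the gate, 10, 15, 9 and 0 were lower at weeks 2, 4, 6 and 10, and 0, 0, 2 and 0 higher, with median log2 ratios of -0.54, -0.64, -0.40 and 0.05. Of 28 type II targets tested there, 2, 6, 7 and 1 were lower at these weeks and 0 higher. Their median log2 ratios were -0.33, -0.48, -0.45 and -0.02. Over all genes tested there, 1.55%, 2.54%, 4.3% and 1.09% were lower at these weeks and 1.29%, 2.44%, 3.56% and 1.55% higher.

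Other measures of the Ccl21a gate also differed. Its own markers Krt5, Krt14, Itga6 and Ly6a summed to 58.4 and 50.5 UMIs per 10000 in the isotype libraries and to 49.7, 40.9, 42.0 and 61.5 in the treated ones. The markers of the Aire gate, led by H2-Aa, summed to 38.4 and 40.0 and to 28.9, 25.6, 26.5 and 36.9. Median depth of the gate was 14251 and 7367 UMIs in the isotype libraries and 11216.5, 4997, 4395.5 and 6387 in the treated ones. T cell markers, led by Lck in all but 1 library, summed to 0.133 to 0.478 over the 7 libraries, and 7 to 10 of 10 were above 0. Myeloid and dendritic markers, led by Lyz2 in 6 of 7 libraries, summed to 0.240 to 0.948, the highest at anti-RANKL week 10, with Flt3 at 0 in all 7. Plasmacytoid dendritic markers summed to 0.0113 to 0.213, with Siglech at 0 in all 7 libraries. The part of these differences in the result was not tested, except for depth: with each cell thinned to 2000 UMIs, 5, 6 and 6 members were lower at weeks 2, 4 and 6 and Ifit1 was called higher at week 10. Thinned, Ubd was no longer called at week 2, Oasl2 at weeks 4 and 6, and Isg15 at week 6, while Ifit1 and Cxcl10 were called lower at week 6. With a fold of 2 the counts were 2, 5 and 1, and with a pseudocount of 1 they were 5, 7 and 1. Without the isotype week 2 library 7, 8, 8 and 1 members were called lower at weeks 2, 4, 6 and 10, with Ifi27l2a added at weeks 2 and 4, Ifit1 and Cxcl10 at week 6 and Ubd at week 10. Without the isotype week 10 library, Cxcl10 was called higher at week 2 and Ifit1 at week 10.

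In the Aire gate the members did not share 1 course. Irf7 levels were 0.476 and 0.417 in the isotype libraries and 0.445, 0.181, 0.351 and 0.293 in the treated ones, and 0.392 in the Aire trace. Ifi27l2a levels were 3.62 and 4.85 in the isotype libraries and 3.18, 4.95, 14.8 and 4.81 in the treated ones, and 5.19 in the Aire trace. Week 6 stood out as high for Ifi27l2a and also for Isg15, at 1.84 beside 0.772 and 0.996 in the isotype libraries. Ifit3 at week 6 was 0.542 beside 0.192 and 0.131, and Ifit1 was 1.47 beside 0.949 and 1.21. At week 2 Bst2 (2.17 beside 1.24 and 1.17) and Oasl2 (1.86 beside 1.18 and 1.19) were above both isotype libraries. Ifit1 (0.653) and Ifit3 (0.0646) were below both at week 2. Ubd stayed high in this gate throughout, at 47.5 and 53.6 in the isotype libraries and 61.8, 59.2, 32.7 and 39.8 in the treated ones, and at 44.4 in the Aire trace. The week 4 library had 20 Aire gate cells.

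Detection was compared at equal depth, with each cell thinned at random to 2000 UMIs and the 172 cells below that depth left out. In the Ccl21a gate Isg15 was detected in 59.9% and 67.5% of cells in the isotype libraries, in 40.5%, 38.3%, 48.5% and 67.1% in the treated ones, and in 72.5% in the Aire trace. The treated libraries of weeks 2, 4 and 6 were the lowest 3, as with the levels. At full depth the shares were 89.5% and 84.8%, then 75.6%, 56.5%, 66.2% and 83.1%, and 93.3%. Irf7 was detected at 2000 UMIs in 50% and 43.1% of cells, then in 20.6%, 19.3%, 19.8% and 48.4%, and in 46.3%.

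Free RNA sets a floor under such shares. Epcam-negative T cells in the libraries (Ptprc and a Cd3 gene detected, 20 cells at 2000 UMIs, median depth 5609 UMIs) had a UMI of Ifi27l2a in 70% of cells, of Ubd in 60% and of Isg15 in 20%. T cells can express interferon targets themselves, so these shares are an upper estimate of free RNA. Over all libraries Ubd was detected in 95.2% of Aire gate cells (median depth 12829), in 48.5% of Ccl21a gate cells (median depth 7243), in 36.7% of Trpm5 gate cells (median depth 8983) and in 51.4% of Krt10 gate cells (median depth 5593). The exact 95% interval of the T cell share of Ubd was 36.1% to 80.9%. Outside the Aire gate the pooled shares of Ubd were thus not above the share in T cells and are not told apart from background, although single libraries reached 71.6% in the Ccl21a gate and 85.2% in the Krt10 gate. Ifi27l2a, with a T cell interval of 45.7% to 88.1%, was above it in the Ccl21a gate (97.0%) and not in the Aire (46.5%), Trpm5 (58.5%) and Krt10 (60%) gates. Isg15, with an interval of 5.73% to 43.7%, was above it in the Ccl21a gate (53.8%) and inside it in the Krt10 (43.6%), Trpm5 (19.1%) and Aire (10.2%) gates. Irf7 was in 10% of T cells (1.23% to 31.7%) and in 31.9% of Ccl21a gate cells, and Bst2 in 25% (8.66% to 49.1%) and 49.6%. Ifit1 (15%, 3.21% to 37.9%) and Ifit3 (5%, 0.127% to 24.9%) had pooled Ccl21a gate shares of 22.9% and 22.0%, inside their intervals. Single libraries reached 39.6% for Ifit1 and 36% for Ifit3 there, above the intervals. For Ifit3 the median library share, 31.0%, was above its interval too. By library, the Ccl21a gate shares of Isg15 at anti-RANKL weeks 2 and 4 (40.5% and 38.3%), of Irf7 at weeks 2, 4 and 6 (20.6%, 19.3% and 19.8%) and of Bst2 at those weeks (39.1%, 37.0% and 45.9%) also lay inside. The time course calls of Ubd, Ifit1, Ifit3, Isg15, Irf7 and Bst2 thus rest on treated libraries with shares mostly inside the T cell intervals. In the Aire gate no library exceeded 24.4% for Isg15, 9.62% for Irf7 or 30% for Bst2 at 2000 UMIs. These lie below the Ccl21a gate shares of those members just given. Ranges of Ifit1 and Ifit3 overlapped between the 2 gates, and Ubd was higher in the Aire gate. The part of free RNA in these shares was not tested. Pooled Aire gate shares of Ifit1 (12.8%), Ifit3 (2.43%), Irf7 (6.00%), Bst2 (17.2%) and Oasl2 (18.8%) also lay inside the T cell intervals. The 20 T cells thus do not tell them from background. Cxcl10, in 61.1% of Aire gate cells and 46.3% of Ccl21a gate cells, was above its T cell interval of 3.21% to 37.9%, and Oasl2 was above its own of 0.127% to 24.9% in the Ccl21a (43.1%), Trpm5 (26.0%) and Krt10 (28.6%) gates. In the Trpm5 (16.7%) and Krt10 (17.9%) gates Cxcl10 lay inside its interval.

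Pairs of members were compared with the product of their shares within a library and gate. Medians were taken over pairs with a product of at least 5 cells. In the Ccl21a gate all 36 pairs had that, and the median ratio of observed to product was 1.04 to 1.11 in the 7 libraries. In the Aire gate 5 to 30 pairs had it, and the median was at most 1.12 and below 1 at anti-RANKL week 4 (5 pairs) and week 6 (18 pairs). Pairs of rare members fell outside these Aire gate medians. Summed over the 7 libraries, Isg15 with Ifit3 was seen there in 21 cells beside 4.98 from the product (ratio 4.21). Ifit3 with Irf7 was seen in 13 beside 2.33 (ratio 5.59), and Ifit3 with Ubd in 34 beside 37.5 (ratio 0.906). The medians of the 2 gates thus do not cover the same pairs. Ifit1 with Ifit3 had the clearest excess in the Ccl21a gate among the pairs examined here, 322 cells beside 188 from the product (ratio 1.71), above the product in 7 of 7 libraries. Isg15 with Ifit3 was seen in 570 cells beside 420 (ratio 1.36, 7 of 7 libraries). Ubd with Ifit1 was seen in 283 cells beside 340 (ratio 0.832) and Ubd with Ifit3 in 293 beside 323 (ratio 0.906), below the product in 7 of 7 libraries each. Ubd with Cxcl10 was above it in 7 of 7 (ratio 1.10). Ifit1 with Oasl2 was above the product in 7 of 7 Aire gates (69 cells beside 39.7, ratio 1.74). The pooled shares of Ifit1 and Ifit3 in both gates, and of Ubd in the Ccl21a gate, were not told apart from background. The same held for Isg15, Irf7 and Oasl2 in the Aire gate. The pairs that hold these members in these gates bear that limit.

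Cells with a UMI of at least 4 of the 9 members at 2000 UMIs were counted as cells with many members, a range and not a type. In the Ccl21a gate their share was 78.3% and 77.2% in the isotype libraries, 53.5%, 44.2%, 56.0% and 73.3% in the treated ones, and 76.7% in the Aire trace. The treated libraries of weeks 2, 4 and 6 stood below the other 4, with 1 library at each and no test. The threshold ran through the bulk of the cells: in the isotype week 2 library 11.8% of Ccl21a gate cells had exactly 3 members and 22.4% exactly 4. In the Aire gate the shares were 19.2% and 23.2% in the isotype libraries, 34.6%, 30%, 41.5% and 17.0% in the treated ones, and 29.0% in the Aire trace. The Aire gate shares of weeks 2, 4 and 6 lay above both isotype libraries, with an interval, of counting error only, from 11.9% to 54.3% at week 4.

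**Figure D3:**
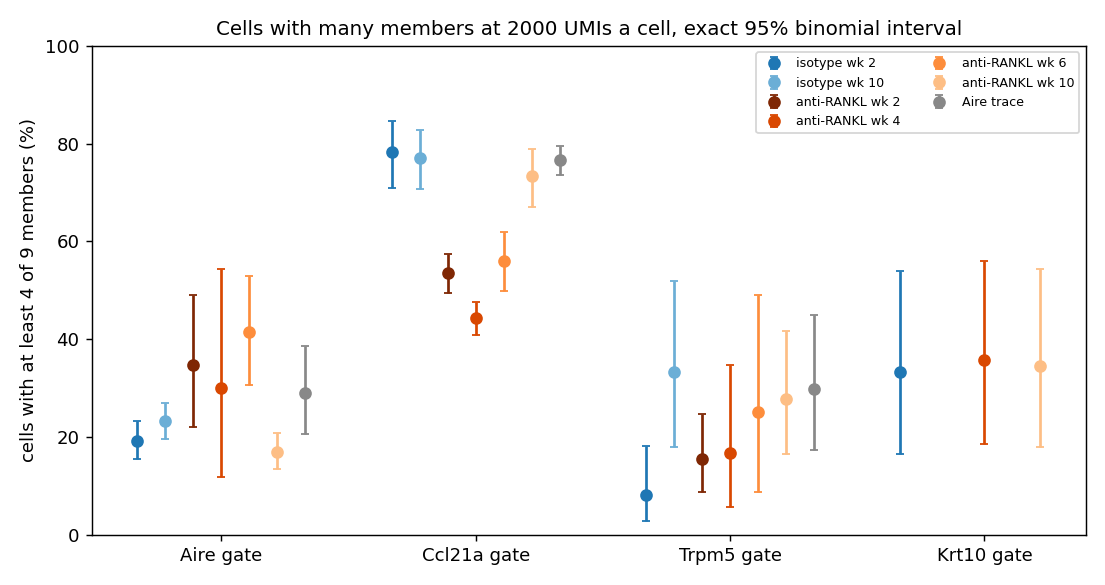
Share of cells (percent) with a UMI of at least 4 of the 9 members after thinning to 2000 UMIs, by gate and library; bars are exact 95% binomial intervals. In the Ccl21a gate the anti-RANKL libraries of weeks 2, 4 and 6 lie at 53.5%, 44.2% and 56.0%, and the others between 73.3% and 78.3%.

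Genes that went with many members were sought in the 4 combinations of library and gate with at least 10 cells with many and 10 with no member, in the Trpm5 gate and among cells of no gate. S100a10 (mean log2 difference 2.82), Apoe, which encodes apolipoprotein E (2.74), Ifitm3 (2.55), H2-T23 (2.54), Dcn, a matrix proteoglycan (2.53), and Rtp4 (2.47) led, followed by H2-DMb2 (2.32), H2-Aa (2.31), Gas6 (2.26) and H2-DMa (2.23). Each was above 0 in 4 of 4 combinations. Dcn also led the fibroblast markers named above, and the part of such cells in these differences was not tested. With cells thinned to 2000 UMIs, Ifitm3 (3.79) and H2-Aa (3.05) were highest among these 10, S100a10 (2.53), Apoe (2.48), Dcn (2.45) and Gas6 (1.94) followed, and H2-T23 (1.63), H2-DMa (1.43), H2-DMb2 (1.29) and Rtp4 (1.19) were over 1.5 times lower than at full depth. Cells with no member numbered 11 to 15 in each, and their median depth ran from 5074 to 14464 UMIs beside 8007 to 13159.5 in cells with many.

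Over 31 profiles of at least 20 cells, 24 of a gate in a library and 7 of the cells of no gate in a library, Ifit3 and Bst2 followed the mean of the other 8 standardised members most closely (Pearson r = 0.939 and 0.937), then Oasl2 (0.878), Isg15 (0.845), Ifi27l2a (0.836), Ifit1 (0.703) and Irf7 (0.449). Cxcl10 (0.141) and Ubd (-0.393) followed it least. Outside the members and lists, the genes most like the mean of all 9 among 6122 were C3, complement component 3 (r = 0.912), Sult5a1 (0.897), Krt14, a basal keratin (0.893), Slc27a3 (0.885) and Col6a1 (0.885). These correlations describe profiles that share libraries and are given without p-values.

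The members lie on 7 chromosomes of GRCm38. Ifit1 (chr19:34640871-34650009, plus strand) and Ifit3 (chr19:34583531-34588731, plus strand) lie in 1 gene cluster with Ifit2, Ifit3b and Ifit1bl1, of which Ifit1bl1 and Ifit3b lie between them. Oasl2 (chr5:114896936-114912234) lies near Oasl1, and Ifi27l2a (chr12:103442167-103443680) near Ifi27l2b. Reads of related genes may be assigned to the wrong copy where their sequences are alike, which was not measured, so the levels of Ifit1, Ifit3, Oasl2 and Ifi27l2a are uncertain to that extent.

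Promoter sequences (RefSeq, GRCm38.p6, 250 bases before to 50 after the start) were available for 8 of the 9 members, all but Ifi27l2a. The core of the interferon-stimulated response element, GAAANNGAA on either strand, was present in 5 of the 8 (Isg15, Ifit1, Ifit3, Bst2 and Cxcl10), beside 8.56% of 32851 promoters of the same length. The gamma-activated site TTCNNNGAA, which reads the same on both strands, was present in Bst2 alone, where it overlaps a response element core, beside 8.30% of promoters. Matches are descriptions of letters in this window only. The upstream 230 bases of the promoters with at least 2 cores are shown for their cores. Of the members with no core in this window, Irf7 and Ubd were called lower at weeks 2 and 4 in the Ccl21a gate, as were these 4. The 4 are Isg15 (chr4:156200839-156201068, minus strand), Ifit1 (chr19:34640639-34640868, plus strand), Ifit3 (chr19:34583279-34583508, plus strand) and Bst2 (chr8:71537493-71537722, minus strand), with the cores in capitals and overlapping cores run together.
Isg15: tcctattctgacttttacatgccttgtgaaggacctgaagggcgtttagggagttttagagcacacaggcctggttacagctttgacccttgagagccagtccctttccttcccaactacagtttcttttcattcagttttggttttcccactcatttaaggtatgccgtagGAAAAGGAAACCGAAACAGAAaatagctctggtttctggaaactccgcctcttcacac
Ifit1: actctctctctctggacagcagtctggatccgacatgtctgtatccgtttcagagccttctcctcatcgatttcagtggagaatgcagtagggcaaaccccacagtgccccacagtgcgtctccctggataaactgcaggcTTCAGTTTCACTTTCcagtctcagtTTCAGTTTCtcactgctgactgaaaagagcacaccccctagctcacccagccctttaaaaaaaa
Ifit3: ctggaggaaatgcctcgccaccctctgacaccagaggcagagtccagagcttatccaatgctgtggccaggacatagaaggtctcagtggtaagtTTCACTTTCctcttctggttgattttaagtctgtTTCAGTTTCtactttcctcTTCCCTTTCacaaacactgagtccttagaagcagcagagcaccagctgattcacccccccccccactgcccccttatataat
Bst2: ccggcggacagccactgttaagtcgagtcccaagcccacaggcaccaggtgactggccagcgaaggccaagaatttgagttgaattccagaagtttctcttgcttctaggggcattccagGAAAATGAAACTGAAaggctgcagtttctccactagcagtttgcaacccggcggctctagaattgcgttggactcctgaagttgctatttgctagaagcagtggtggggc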

How the data were processed

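Single-cell RNA was measured in 7 libraries. The submitters' notes name Cell Ranger 2.2.0 and Seurat 2.3.4. Per the files as deposited, the authors scaled each cell to 10000 UMIs, added 1 and took the natural log; whole UMIs were recovered (tolerance 0.001). Members and lists were chosen with earlier results of these data known. Cells with Ptprc = 0 that passed exactly 1 gate were used. Profiles of at least 20 cells, and genes with a mean of at least 0.05 UMIs per 10000, were fitted with limma 3.58.1 (trend, library as block, 5 classes) in R 4.3.3; the rest used Python 3.11.15. Anti-RANKL libraries were compared by a fold of 1.5, without a test. Genes were named from these sets, not each in every comparison: all members; per list, up to 3 genes a direction with the largest log2 difference past adjusted p 0.05; interferon ligands, receptors and kinases; list genes called along the time course; the 5 genes most like the members; the 10 leading genes of cells with many members. The pairs of members printed for co-detection were picked after their values were seen.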

Additional observations from a re-analysis of the deposited data

How the results depend on the processing

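Of 756 alternative log2 differences of members between gates, 709 kept their call, 37 lost it, 10 gained it and 0 turned direction past the test. Members called were 8 between the Aire and Ccl21a gates and 7 between Trpm5 and Ccl21a whichever library was left out, 1 to 6 (5 with all libraries) between Krt10 and Ccl21a, and 6 to 8 (8 with all) between Krt10 and Aire; thinning to 2000 UMIs left 3 between Krt10 and Ccl21a. Genes called between Aire and Ccl21a were 4811, and 1600 with a mean of at least 0.5, 2939 thinned, 3173 without immune marker UMIs and 4096 to 5228 without 1 library. Between Krt10 and Ccl21a they were 2776, and 1021, 1648 (thinned) and 1545 to 4112; between Trpm5 and Ccl21a 4667, and 1654, 2779, 3107 and 3987 to 5179; between Krt10 and Aire 3876, and 1276, 2533 and 2947 to 4372. The cause was not tested.

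In all cells the members' median log2 ratio to the isotype mean was 0.25, -0.06, 0.00252 and 0.14 at weeks 2, 4, 6 and 10. It was 0.20 at week 2, -0.038 at week 6 and 0.21 at week 10 when thinned, -0.99, -1.14, -0.63 and 0.19 in the Ccl21a gate, and -0.42, -0.50, -0.46 and 0.18 without immune marker UMIs, so its sign at weeks 2 and 6 was not the same in all of these settings. Members lower were 6, 7, 6 and 0; a fold of 2 left 2 at week 2 and 1 at week 6, and a pseudocount of 1 left 1 at week 6. Thinned, 1 member was higher at week 10. With 1 isotype library left out, a choice made after seeing the data, 0 to 1 members were higher at week 2, 0 to 1 lower at week 10 and 0 to 1 higher at week 10.

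The median pair ratio in the Ccl21a gate was 1.08, and 1.02 at 4000 UMIs, 1.05 expected over all thinnings and 1.03 at full depth. Median detection there was 46.3%, and 67.0% and 81.3% at 4000 UMIs and full depth. The median share with many members was 73.3%, and 89.5%, 94.7%, 89.8% (at least 3 members), 54.0% (at least 5) and 74.4% (expected). Not run for the Krt10 gate, for want of profiles: at least 50 cells a profile, no immune marker UMI, gates Aire > 0 and Krt10 > 2, and isotype libraries with Aire trace only.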
